A study of Mus musculus with 8 samples.

Results

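The angiopoietins and the vascular endothelial growth factors, with their receptors, were followed on 8 arrays of cultured mouse follicular cells. The set held 10 genes, chosen by name and matched to the arrays through their Entrez gene IDs, out of 24235 genes with a row. They were the ligands Angpt1 (Entrez 11600), Angpt2 (11601), Vegfa (22339), Vegfb (22340), Vegfc (22341) and Pgf (18654), and the receptors Tek (21687), Tie1 (21846), Kdr (16542) and Flt1 (14254). Of these 10 genes, 7 passed the filter on dim genes, a median signal of at least 10 units over the 8 arrays, and entered the test over 15645 genes. The other 3, Tek, Tie1 and Flt1, did not.

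The cells came from preantral follicles of female Swiss mice aged 8 weeks, pooled from 5 mice per replicate, and had been in culture for 9 days, by the labels mostly as granulosa cells. They received 12 pmol of a control siRNA or of siRNA against Foxl2 for 24 h, together with a DsRed plasmid that all groups shared. The medium held charcoal-treated serum and no added androstenedione. By the study's account, vehicle, which was ethanol, or 100 nM 17β-estradiol (E2) was added after these 24 h and was present for the last 10 h. Each siRNA was thus combined with vehicle and with E2, which gave 4 groups of 2 arrays. By the design, the cells of the duplicates came from different animals grown independently, so the p-values measure the spread between pools of cells, and 2 arrays per group limit the precision. The arrays of each group are numbered 1 and 2. The labels do not say whether same-numbered arrays of different groups share a pool, and the main test does not pair them. Values are log2 of the spot signal after division by the 75th percentile of its array, so that 1 unit is a doubling. They were compared only within a gene, since the brightness of a probe depends on its sequence. The exception is the summed signals of marker lists, which weigh the brightest probes most.

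Angiopoietins act on TIE receptors of endothelial cells. Angpt1 activates Tek, which keeps vessels stable, Angpt2 is a context-dependent antagonist that loosens them, and Tie1 is a related receptor that modulates Tek. Vegfa drives the growth of new vessels through Kdr, the main signalling receptor, and also binds Flt1, which limits its availability. Pgf and Vegfb bind Flt1, and Vegfc acts on lymphatic vessels through Flt4. In the ovary, granulosa cells are a source of Vegfa, and vessels lie outside the basement membrane that encloses them, in the theca, so the ligands and their receptors are normally found in different cells.

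For Vegfa and its receptor Kdr, the 250 bases before the annotated start of transcription are given from RefSeq (GRCm38.p6). This ligand and receptor were chosen because both stood above 0 in the comparison of the siRNAs over both treatments. Pgf stood above 0 there too, and of these genes only Vegfa was called. The sequences are written 5′ to 3′ in the direction of the gene. Capitals mark GC boxes (GGGCGG on either strand) and cores of hypoxia elements (ACGTG or else GCGTG on either strand). The Vegfa stretch lies at chr17:46032378-46032627 and the Kdr stretch at chr5:75978456-75978705, both on the minus strand.
Vegfa: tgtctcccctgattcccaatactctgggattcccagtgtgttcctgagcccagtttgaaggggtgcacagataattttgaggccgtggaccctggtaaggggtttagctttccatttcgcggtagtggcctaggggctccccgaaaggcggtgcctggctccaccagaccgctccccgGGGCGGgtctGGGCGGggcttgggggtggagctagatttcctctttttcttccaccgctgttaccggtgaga
Kdr: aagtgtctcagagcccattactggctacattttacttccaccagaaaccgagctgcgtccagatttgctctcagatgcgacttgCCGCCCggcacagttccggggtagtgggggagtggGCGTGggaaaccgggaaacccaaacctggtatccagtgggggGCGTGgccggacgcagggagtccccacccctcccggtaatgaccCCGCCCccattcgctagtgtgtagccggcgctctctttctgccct
Vegfa held 2 GC boxes and no hypoxia core in this stretch, and Kdr held 2 of each. Over all 32851 stretches of this length in the table, 32.7% held a GC box and 38.6% a hypoxia core. Of the 10 stretches that the table holds for 8 of the 10 genes, 7 held a GC box and 5 a hypoxia core, and the later of the 2 starts of Vegfa held 2 such cores. A forkhead core, searched on both strands as GTAAACA and with the alternative spellings ATAAACA and, last, GTAAATA, was found in 0 of the 10 stretches and in 9.45% of all, and a full estrogen response element (GGTCA followed, after 3 bases of any kind, by its reverse complement) in 0 of the 10 and in 0.0639% of all. These are matches of letters and not binding sites. Angpt1 and Angpt2 are named only.

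The targeted gene was examined first. Foxl2, the granulosa cell transcription factor against which the siRNA was directed, read 12.77 to 13.46 on the 4 arrays with control siRNA and 12.97 to 13.41 on the 4 arrays labelled FOXL2 siRNA. Over both treatments the difference was 0.18 (SE 0.10, limma adjusted p = 0.334), so at the level of the gene the signal did not fall. Its 2 probes disagreed, with a difference of -0.97 (SE 0.19, limma adjusted p = 0.0200) for the dimmer probe and 0.18 (SE 0.10, limma adjusted p = 0.364) for the brighter one. The brighter probe set the value of the gene, so that value could not show the fall of the dimmer one. The groups are therefore named by their labels in all that follows. The share of probes well above background ran from 51.4 to 55.6% over the arrays, and the duplicates correlated across probes at 0.983 to 0.987. Of 14 granulosa cell markers, 11 were well above background on all 8 arrays, while Fshr and Amh, which define granulosa cells of follicles, were not well above background on any. Of the 12 that passed the filter, 4 were called lower and 1 higher with FOXL2 siRNA over both treatments, beside 12.6% of all genes called. Fst read 11.22 to 11.36 with control siRNA and 8.91 to 9.58 with FOXL2 siRNA. Inhbb went the other way, at 13.31 to 13.89 and 14.10 to 14.67. What these values say of the knockdown was not tested. Of 7 macrophage markers 4, and of 5 oocyte markers 1, were well above background on all 8 arrays, and so were 4 of the 5 theca and luteal markers with a row.

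The levels of the 10 genes are plotted for every array.

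**Figure D1:**
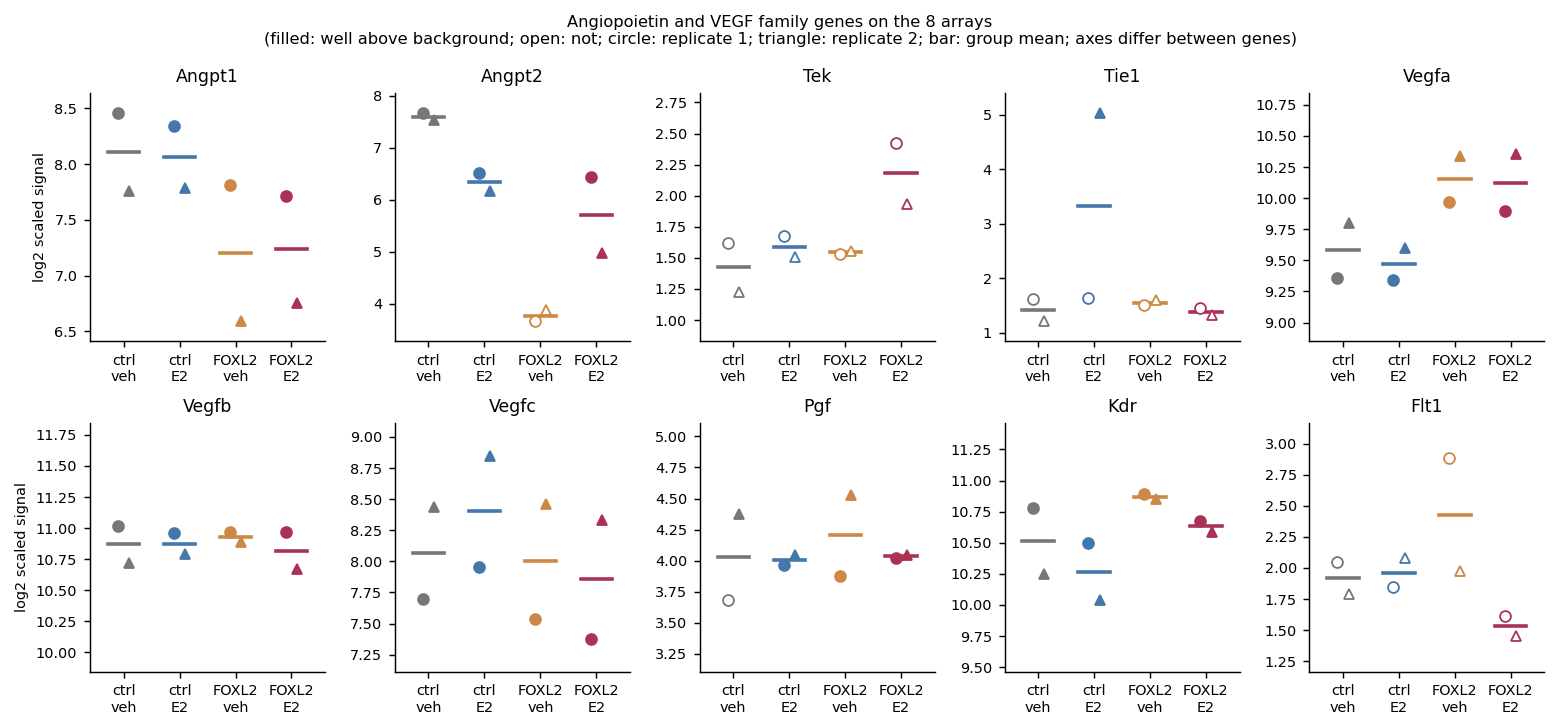
Log2 scaled signal of each gene (y axis, 1 panel per gene, with a scale of its own) on the 8 arrays, by siRNA and treatment (x axis; ctrl is control siRNA, veh is vehicle). Bars are group means, circles and triangles the arrays numbered 1 and 2, and open symbols values not well above background. Angpt2 is open on both arrays of FOXL2 siRNA with vehicle, the 4 Vegfa values with FOXL2 siRNA lie above the 4 with control siRNA, and Tek and Flt1 are open throughout.

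Angpt2, the context-dependent antagonist of Tek, had the largest measured difference between the siRNAs among the 7 genes tested, and it was lower on the arrays labelled FOXL2 siRNA without E2. It read 7.66 and 7.53 on the 2 arrays of control siRNA with vehicle and 6.52 and 6.18 on those of control siRNA with E2. On the arrays of FOXL2 siRNA it read 3.68 and 3.88 with vehicle, where neither value was well above background, and 6.45 and 4.98 with E2. The arrays of FOXL2 siRNA with vehicle were thus the 2 lowest of all 8, and the 2 arrays of FOXL2 siRNA with E2 lay 1.47 apart, the second of them below every control siRNA array.

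On the processed signal with vehicle, Angpt2 was at least 13.5-fold lower with FOXL2 siRNA than with control siRNA (measured difference -3.82, SE 0.42, limma adjusted p = 0.00313). For this bound, the lowest signal counted as well above background on an array stood in where the measured one was below it. In this comparison Angpt2 was the 1 gene called among the 7 tested, against 6.56% of all genes. With E2 the difference was -0.64 (SE 0.42, limma adjusted p = 0.531), and its 95% interval ran from -1.62 to 0.35. Over both treatments the measured difference was -2.23 (SE 0.30, limma adjusted p = 0.00312). In bulk RNA, fewer cells that make a transcript and less of it per cell cannot be told apart. Background correction by normexp, which lifts dim values, gave -1.56 with vehicle and -0.91 over both treatments, each still called. The bound of 13.5-fold therefore did not hold under normexp.

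The E2 effect on Angpt2 had opposite signs with the 2 siRNAs. With control siRNA the level with E2 was 1.24 lower than with vehicle (difference -1.24, SE 0.42, limma adjusted p = 0.896), and the duplicates of the groups did not overlap. With FOXL2 siRNA, on the processed signal of all arrays, the level with E2 was at least 3.67-fold higher than with vehicle (measured difference 1.94, SE 0.42, limma adjusted p = 0.589), again without overlap. This value depended on single arrays and on the background correction: it was 1.20 without the first and 2.67 without the second array of FOXL2 siRNA with E2, and 0.48 with normexp, and it was not called in any of these. Groups of this size did not overlap for 27.1% and 27.5% of all genes in the 2 comparisons. The difference between the E2 effects was 3.18 (SE 0.60, unadjusted p = 0.000824 in limma), and it did not pass over all genes (limma adjusted p = 0.174). Without the second array of FOXL2 siRNA with E2 it was 3.92 (limma adjusted p = 0.0167, against 0.00245 to 0.552 over the alternatives), and normexp gave 1.31. By the rule of the methods, which asks for a difference of at least 1 that also exceeds 2 times the summed SDs of the groups, Angpt2 counted as an E2 target with control siRNA (1.24 against a bound of 0.68) and not with FOXL2 siRNA (1.94 against 2.37). That rule takes either direction, and with control siRNA Angpt2 met it by a lower level with E2. The study applied the rule to these same arrays, so this is no independent evidence. It names Angpt2 among the genes that E2 activated, the other direction from these arrays grouped by their labels. The reason for this difference was not tested.

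Angpt1, the agonist of Tek, read lower on average with FOXL2 siRNA, and the difference did not pass the test, which does not pair arrays by their number. It read 8.46 and 7.76 with control siRNA and vehicle, and E2 in place of vehicle gave 8.35 and 7.79. With FOXL2 siRNA it read 7.81 and 6.59 with vehicle and 7.71 and 6.76 with E2. In all 4 groups the array numbered 1 was the higher one, by 0.56 to 1.22, and the ranges of the siRNAs overlapped because the first array of FOXL2 siRNA with vehicle lay above the second of control siRNA with vehicle. Averaged over vehicle and E2 the difference was -0.87 (SE 0.33, limma adjusted p = 0.139), with a 95% interval of -1.64 to -0.10, and was -0.91 with vehicle and -0.83 with E2. E2 changed the mean by -0.04 with control siRNA and by 0.03 with FOXL2 siRNA, with SEs of 0.47.

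The receptors of the angiopoietins gave next to no signal. Tek read 1.23 to 1.68 with control siRNA and 1.53 to 2.43 with FOXL2 siRNA, and was not well above background on any of the 8 arrays. Tie1 was well above background on 1 array, the second of control siRNA with E2, where it read 5.02, and read 1.22 to 1.64 on the other 7. Both receptors are restricted to endothelial cells and some blood cells in most tissues. A probe at background gives only an upper limit, and no fold change is given for either gene.

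Among the VEGF ligands, Vegfa was higher with FOXL2 siRNA. It read 9.36 and 9.80 in vehicle and 9.34 and 9.60 in E2 with control siRNA. With FOXL2 siRNA it read 9.97 and 10.34 in vehicle and 9.90 and 10.35 in E2. The lowest of the 4 values with FOXL2 siRNA lay above the highest of the 4 with control siRNA. Vegfa was the 1 gene of the set without such an overlap, and 20.9% of all genes showed none. Averaged over vehicle and E2 the difference was 0.61 (SE 0.15, limma adjusted p = 0.0369), a 1.53-fold higher level. It was 0.57 with vehicle (limma adjusted p = 0.184) and 0.65 with E2 (limma adjusted p = 0.162), so neither treatment alone passed. Over both treatments 2 of the 7 genes tested were called, Vegfa higher and Angpt2 lower, against 12.6% of all genes. With E2, 0 of the 7 were called, against 4.38% of all.

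The call for Vegfa was a narrow one. It was lost without the dim-gene filter (limma adjusted p = 0.0666), with the brightest probe alone (0.0876), without the intensity trend (0.0776), and with 5 of the 8 arrays left out in turn, against 1.85e-05 to 0.118 over the alternatives. The arrays whose omission lost it were the first of control siRNA with vehicle, both of control siRNA with E2, and the second of each FOXL2 siRNA group, with differences of 0.50 to 0.68. Vegfa had 2 probes, whose accessions name different transcripts. The one spotted once differed by 0.80 (SE 0.13, limma adjusted p = 0.00863 in the fit over 31520 probes, of which 7.96% were called), and the brighter one, spotted 2 times, by 0.56 (SE 0.18, limma adjusted p = 0.113). Both pointed the same way with each treatment. E2 moved Vegfa by -0.11 with control siRNA and by -0.03 with FOXL2 siRNA (SE 0.21 each).

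Vegfb, a ligand of Flt1, lay between 10.67 and 11.02 on all 8 arrays. Its difference between the siRNAs was -0.00 (SE 0.10), and the 95% interval of -0.23 to 0.23 bounded a change in either direction.

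Vegfc, the lymphatic ligand, read 7.70 and 8.44 in vehicle and 7.95 and 8.85 in E2 with control siRNA. With FOXL2 siRNA it read 7.54 and 8.46 in vehicle and 7.38 and 8.33 in E2. In each group the array numbered 2 was the higher one, by 0.74 to 0.96, a gap larger than any difference between group means. Averaged over vehicle and E2 the siRNAs differed by -0.31 (SE 0.33, limma adjusted p = 0.615). Pgf, the placental growth factor, read 3.68 to 4.53 and was well above background on 7 arrays, not on the first of control siRNA with vehicle. Its difference was 0.10 (SE 0.26, limma adjusted p = 0.853).

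The duplicates kept one order in all 4 groups for 6 of the 7 genes tested, all but Angpt2. Such an order was not particular to these genes. Over all 15645 genes, the differences between duplicates correlated between groups at 0.330 to 0.446. The array numbered 1 was the higher one for Angpt1, Vegfb and Kdr, and the array numbered 2 for Vegfa, Vegfc and Pgf. The summed signal of 9 mural cell markers was also higher on the arrays numbered 2, at 19918 to 21382 units against 11887 to 15592. Acta2, the actin of smooth muscle and myofibroblasts, carried this gap, with 13.35 to 13.56 against 11.88 to 11.99, and without it, a choice made after its values were seen, the sums overlapped, at 8495 to 10911 against 8115 to 11521 units. Mcam, at 7686 to 11150 units, made up most of the sum without Acta2. Des, the muscle filament desmin, was the higher on the array numbered 1 in every group. Notch3 was the higher on the array numbered 2 in every group, at 8.72 to 9.12 against 8.11 to 8.42. Of the 9 markers, 4 were well above background on all 8 arrays, and Rgs5, Abcc9 and Kcnj8, which mark pericytes, on none. The part of mural cells in the values of the 7 genes was not tested.

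**Figure D2:**
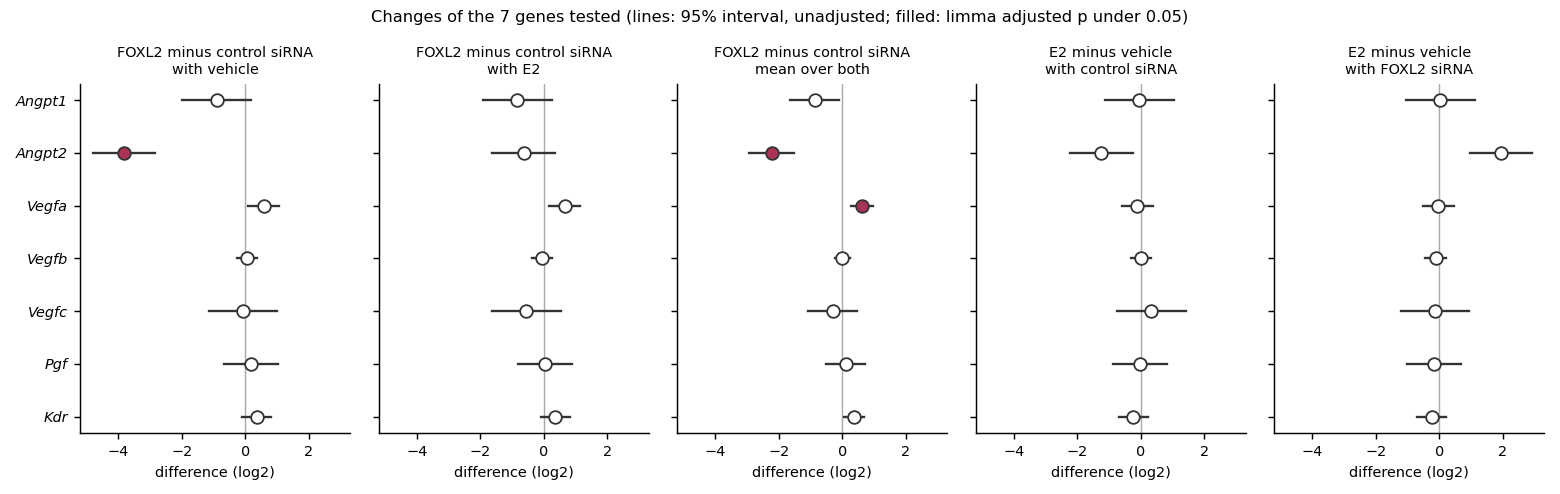
Differences on the log2 scale (x axis) for the 7 genes tested (y axis), for FOXL2 siRNA minus control siRNA with vehicle, with E2 and over both, and for E2 minus vehicle with each siRNA. Points are fitted differences, lines unadjusted 95% intervals, and filled points limma adjusted p under 0.05. Filled points are Angpt2 with vehicle (-3.82) and over both (-2.23), and Vegfa over both (0.61).

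Kdr, the main VEGF receptor, was well above background on all 8 arrays and read slightly higher with FOXL2 siRNA, without passing the test. It read 10.78 and 10.25 in vehicle and 10.50 and 10.04 in E2 with control siRNA. With FOXL2 siRNA it read 10.89 and 10.85 in vehicle and 10.68 and 10.59 in E2. The ranges of the siRNAs overlapped through the first array of control siRNA with vehicle. Averaged over vehicle and E2 the difference was 0.36 (SE 0.14, limma adjusted p = 0.141), and without that array it was 0.50 (limma adjusted p = 0.0448, against 0.00756 to 0.363 over the alternatives). E2 moved Kdr by -0.24 with either siRNA (SE 0.20).

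The 2 probes of Kdr disagreed, although both carry the same RefSeq accession. The brighter probe read 11.03 to 11.89 and set the value of the gene. The other, spotted 10 times, read 1.72 to 4.09 and was well above background on 1 array, the first of FOXL2 siRNA with E2. Which of them reports the transcript cannot be told from these files, and the level of Kdr rests on the brighter probe alone. Flt1, the receptor that holds back Vegfa, read 1.45 to 2.88 as the mean of its 3 probes. The single probes read 1.27 to 4.01, and none was well above background on any of the 8 arrays.

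**Figure D3:**
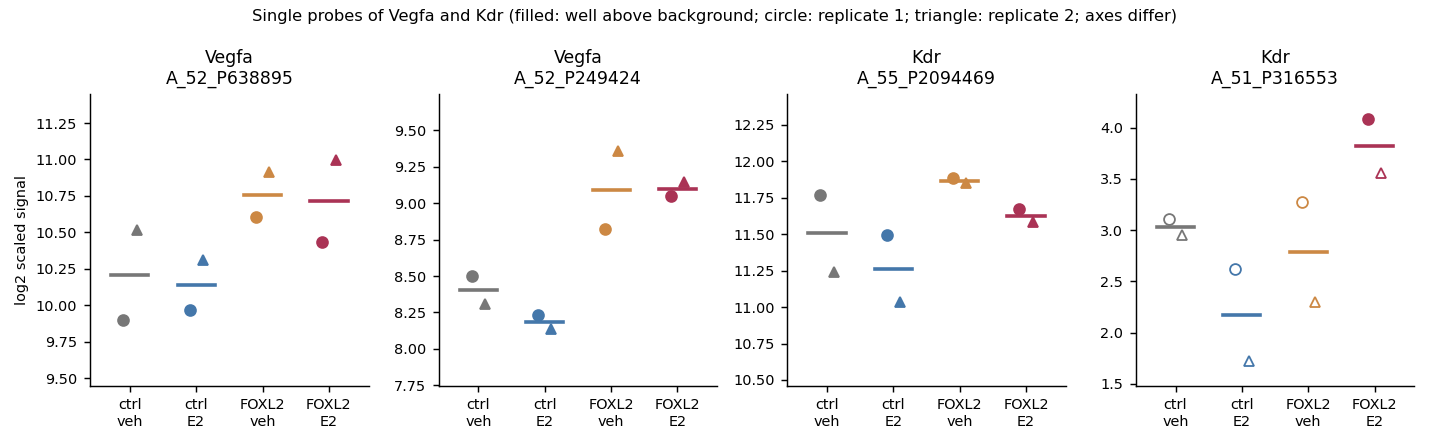
Log2 scaled signal (y axis, a scale of its own for each panel) of the single probes of Vegfa and Kdr on the 8 arrays by siRNA and treatment (x axis; symbols as for the genes). Both Vegfa probes have higher means with FOXL2 siRNA, whereas 1 Kdr probe lies at 11.03 to 11.89 and the other, mostly open, at 1.72 to 4.09.

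For E2, 0 of the 7 genes were called with control siRNA, where 0.0192% of all genes were. With FOXL2 siRNA the count was 0 as well, beside 0.0128% of all genes, and for the difference of the E2 effects it was 0 beside 0.243%. At an unadjusted p under 0.05 in limma, Angpt2 was the 1 gene of the 7 in each of these 3 comparisons. Such a count was reached by 4.58%, 3.06% and 4.89% of all genes.

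Other genes of the VEGF and TIE pathways were taken as a list of 10. Of the 9 that passed the filter, 1 rose and 1 fell over both treatments, beside 12.6% of all genes called in either direction, and their median difference was -0.20, against -0.00 over all genes tested. Nrp1, a co-receptor that presents Vegfa to Kdr, rose by 1.09 (SE 0.15, limma adjusted p = 0.00362) and read 7.10 to 7.49 with control siRNA and 7.96 to 8.78 with FOXL2 siRNA. It was called with E2 (1.39, limma adjusted p = 0.0135) and not with vehicle (0.79, limma adjusted p = 0.0775), and the difference between these effects did not pass (0.60, limma adjusted p = 1). Nrp2, the co-receptor for Vegfc, fell by 0.49 (SE 0.10, limma adjusted p = 0.0152). Its arrays read 10.41 to 10.64 with control siRNA and 9.87 to 10.27 with FOXL2 siRNA, so the siRNAs did not overlap.

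Vegfd, another lymphatic ligand, read 11.97 to 12.66 with control siRNA and 11.09 to 11.90 with FOXL2 siRNA, without overlap, and its difference of -0.84 did not pass (SE 0.26, limma adjusted p = 0.0753). Flt4, the receptor of Vegfc and Vegfd, did not pass the filter and was well above background on 1 array. E2 called 0 of the list with either siRNA.

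Of 6 angiopoietin-like genes, which resemble the angiopoietins in sequence but do not bind Tek, 4 passed the filter and 1 fell, beside the same 12.6% of all genes. Angptl4, an inhibitor of lipoprotein lipase, fell by 0.38 over both treatments (SE 0.06, limma adjusted p = 0.00591) and by 0.59 with vehicle (limma adjusted p = 0.00775). It read 14.67 to 15.06 with control siRNA and 14.36 to 14.56 with FOXL2 siRNA. With E2 the difference was -0.17 (limma adjusted p = 0.368). The difference between the E2 effects, 0.41, did not pass (limma adjusted p = 0.573).

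Vegfa and Angptl4 are known targets of hypoxia signalling, so the genes that sense oxygen were listed too. Of 10 such genes, 9 passed the filter and 0 were called in any of the 6 comparisons. The median difference over both treatments was 0.09. Hif1a, the oxygen-regulated subunit, differed by -0.02 (SE 0.11) and Epas1, its relative in endothelial and other cells, by 0.09 (SE 0.07). These are RNA levels, and the proteins are regulated by degradation.

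Of 9 genes listed as secreted inhibitors of vessel growth, 8 passed the filter. Over both treatments 2 of them rose and 2 fell, beside 12.6% of all genes called, and their median difference was 0.19. Vash2, which was 1 of the 2 that fell, is known to promote vessel growth rather than to block it, so Thbs1 was the 1 inhibitor that fell. Timp3, a metalloproteinase inhibitor that blocks Kdr, rose by 1.79 (SE 0.13, limma adjusted p = 0.000304) and read 11.59 to 12.12 with control siRNA and 13.17 to 13.95 with FOXL2 siRNA. Adamts1, a secreted protease that binds Vegfa, rose by 1.39 (SE 0.07, limma adjusted p = 0.000111) and read 10.08 to 10.23 with control siRNA and 11.47 to 11.62 with FOXL2 siRNA.

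Thbs1, thrombospondin, fell by 1.17 (SE 0.08, limma adjusted p = 0.000254) and read 13.70 to 13.98 with control siRNA and 12.59 to 12.76 with FOXL2 siRNA. Vash2, a vasohibin, fell by 1.66 (SE 0.23, limma adjusted p = 0.00342). It read 5.06 to 5.95 with control siRNA and 3.74 to 4.12 with FOXL2 siRNA, and was well above background on 6 of the 8 arrays. All 4 called genes were also called with vehicle and with E2 taken separately, in the same direction, and their arrays did not overlap between the siRNAs.

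**Figure D4:**
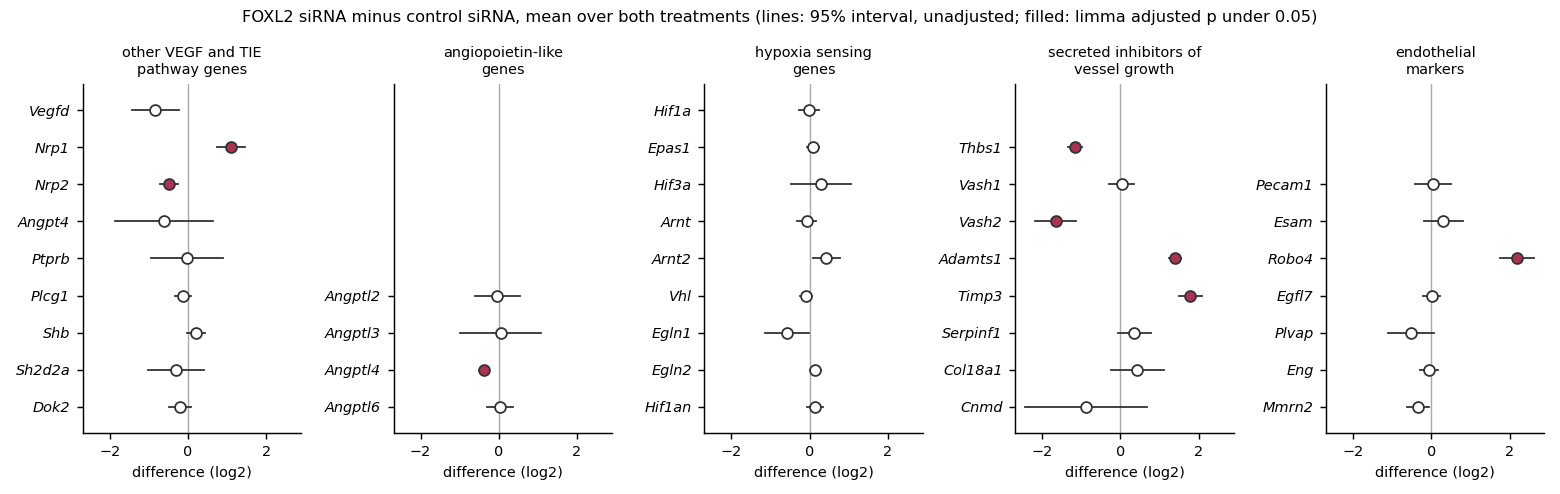
Differences between FOXL2 siRNA and control siRNA over both treatments on the log2 scale (x axis) for the genes of 5 lists that passed the filter (y axis). Points are fitted differences, lines unadjusted 95% intervals, and filled points limma adjusted p under 0.05. Nrp1 (1.09), Timp3 (1.79), Adamts1 (1.39) and Robo4 (2.20) are filled to the right of 0, and Nrp2 (-0.49), Angptl4 (-0.38), Thbs1 (-1.17) and Vash2 (-1.66) to the left.

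Endothelial cells, the usual site of Tek, Tie1, Flt1 and Kdr, were looked for with 15 markers. Of these, 8 were not well above background on any array, among them the defining cadherin Cdh5, Cldn5, Erg and Sox17, and 7 were well above background on all 8. The summed signal of the 15 was 2575 to 3278 units with control siRNA and 4293 to 5653 with FOXL2 siRNA. Without Robo4, a choice made after its values were seen, the sum was 2138 to 2636 and 2201 to 2542. Egfl7 alone, at 1772 to 2212 units, made up most of that sum. Robo4, a guidance receptor, was the 1 marker called over both treatments among the 7 that passed the filter, beside 12.6% of all genes. It rose by 2.20 (SE 0.19, limma adjusted p = 0.000544). Mmrn2 was not called, and read 6.48 to 6.61 with control siRNA and 5.95 to 6.32 with FOXL2 siRNA. Such a lack of overlap was seen for 20.9% of all genes. Pecam1, a junction protein of endothelial and blood cells, differed by 0.04 (SE 0.19). The part of endothelial cells in the signal of Kdr was not tested. Of the 3 lymphatic markers, Pdpn, which other cell types also make, was well above background on all 8 arrays, and Lyve1 on none.

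The genes most like 3 members in pattern were found by Pearson's r over the 8 arrays among 13396 named genes that were well above background on at least 4 arrays. For Angpt2 they were Gpr25 (0.986), Frmd3 (0.983), Fam110c (0.981), Mreg (0.969) and Pcdh8 (0.969). For Angpt1 they were Pdcd1 (0.991), Selenbp1 (0.986), Cables1 (0.983), Rtca (0.983) and Dhdh (0.981). For Vegfa they were Gstm3 (0.989), Igfbp2 (0.988), Arih1 (0.988), Ccn1 (0.986) and Bcar1 (0.986). The 8 arrays fall into 4 groups, so these values describe shared group means and shared order of the duplicates.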

How the data were processed

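Total RNA of 8 samples was amplified from 50 ng, labelled with Cy3 and hybridised to one-colour Agilent arrays on 1 slide. The deposited scanner files hold spot intensity values that the authors' software corrected for background. This was Agilent Feature Extraction 11.5.1.1, as the scanner output records, with GeneSpring v12 by the study's account. The authors' deposited table is on a log2 scale, was scaled to the 75th percentile, and averages the probes of a gene. After a constant of -0.22 to -0.19 per array was removed, 98.8 to 99.0% of its values equalled those computed here within 0.001.

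Here, 3671 control spots of 62976 and 39 flagged probes were left out, and spots of one probe were averaged. The processed intensity was divided by the 75th percentile of its array, which was 275 to 367 units, and multiplied by the mean of these, 321.8. Where several probes carried one Entrez ID in the authors' table, their linear mean was taken, and genes with a median of at least 10 units were kept. No probe was saturated. Arrays carry no read depth, and their number limits the precision. RefSeq named 22352 of the 24235 gene IDs. The arrays were designed on mm9, so no gene coordinates are printed beside the GRCm38.p6 stretches before 2 starts of transcription.

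Group means were fitted over all 8 arrays with limma 3.58.1 in R 4.3.3, with an intensity trend and 4 residual degrees of freedom. The two-sided p-values were adjusted by Benjamini-Hochberg over 15645 genes, and an adjusted p under 0.05 was called. The fit was tested on simulated data. Where no array of a group measured a gene well above background, its fold is a bound, written "at least", that holds for the processed signal and not under normexp. This sets the mean of the brighter group against, per dim array, the higher of the gene's own signal and the lowest signal well above background.

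The genes, the lists and the tests were chosen with earlier results of these data known. The rule names all 10 genes, Foxl2, the called genes of each list and, for 3 genes, the 5 most similar in pattern. A fit of single probes, the endothelial sum without Robo4 and the mural sum without Acta2 were added after the values had been seen. Tables and plots were made with Python 3.11.15.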

Additional observations from a re-analysis of the deposited data

How the results depend on the processing

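The 7 genes were recomputed in 6 comparisons under background correction by normexp, quantile normalization, 2 other filters, the brightest probe, no intensity trend, the authors' values, only the groups compared, values centred within replicate numbers, a replicate block, and with each array left out. No called difference changed sign. The call of Angpt2 with vehicle and over both treatments held in all of these, and normexp gave its smallest values, -1.56 and -0.91. Over both treatments the count of called genes was 2 and fell to 1, Angpt2, without the filter, with the brightest probe and without the trend, the cause being the loss of Vegfa. With arrays left out it ran from 1 to 2, and without the first array of control siRNA with vehicle the 2 were Angpt2 and Kdr. In the other comparisons it ran from 0 to 1 with arrays left out, the 1 being Angpt2, for the difference of the E2 effects only without the second array of FOXL2 siRNA with E2.

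The labels do not say that arrays with the same replicate number share a pool of mice. Deviations from the group means correlated between same-numbered arrays of different groups at 0.330 to 0.446 over 15645 genes. With the replicate block (3 residual degrees of freedom), calls among the 7 genes went from 0 to 1 for E2 with FOXL2 siRNA, from 1 to 3 for FOXL2 siRNA with vehicle, from 0 to 3 with E2, from 2 to 5 over both, and from 0 to 1 for the difference of the E2 effects. Angpt1 and Vegfa were the genes added with vehicle, Angpt1, Vegfa and Vegfc those called with E2, and Angpt1, Vegfc and Kdr those added over both. For Angpt1 the adjusted p became 0.00127, 0.00278 and 8.2e-05, and over all its alternatives it ran from 0.00127 to 0.837, 0.00278 to 0.846 and 8.2e-05 to 0.334. Angpt2 was the gene called in the E2 comparison and in the difference. Calls over all genes over both treatments went from 1966 to 4325. Under the block, 0.614% of all genes were called for E2 with FOXL2 siRNA, 18.8% for FOXL2 siRNA with vehicle and 14.9% with E2. The shares were 27.6% over both treatments and 2.12% for the difference of the E2 effects. Centring within replicate numbers, which leaves the degrees of freedom uncorrected, gave 3, 3 and 5 calls for FOXL2 siRNA with vehicle, with E2 and over both. Over all 15645 genes, centring gave 2784, 2240 and 4276 calls in these comparisons. The replicate numbers coincide with the rows of the slide.

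Dim signal limits what was measured for Tek, Tie1, Flt1 and Pgf and for Angpt2 with FOXL2 siRNA and vehicle.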
